A study of Mus musculus with 9 samples.

Results

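The expression of 9 genes for the capture of bacterial lipopolysaccharide (LPS) and for signaling through the adaptor MyD88 was examined in mouse liver after CD40 activation. The genes were taken by name: Lbp, Cd14, Ly96, Cd180, Ly86, Myd88, Tirap, Irak2, and Irak3. All 9 were among the 24341 genes of the deposited table, had a value in every mouse, and passed the filter on low values, as did 13807 genes in all. The livers came from 9 wild-type C57BL/6 mice, 3 given anti-CD40 (mice 2, 5, and 9), an antibody that activates the receptor CD40, and 6 given PBS as control (mice 3, 4, 7, 8, 11, and 12). Tissue was collected 48 h after treatment, and 1 library per mouse was made from bulk liver RNA by 3′ mRNA sequencing. The labels give no age, sex, or sequencing batch for single mice. The study asked how CD40 activation prepares the liver for injury by chemotherapy, and this comparison addresses which transcripts differed before chemotherapy would be given.

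LPS in plasma is picked up by LPS-binding protein (Lbp), an acute phase protein secreted by hepatocytes, and is handed to Cd14, a protein held at the surface of myeloid cells or shed from it. Cd14 passes LPS to MD-2 (Ly96), which sits on the receptor Tlr4. The related receptor Cd180 (RP105), found on B cells and myeloid cells, is paired in the same way with MD-1 (Ly86). Inside the cell, Tirap brings Myd88 to the activated receptor, Myd88 gathers the kinases Irak4, Irak1, and Irak2, and these act on Traf6. Irak3 (IRAK-M) is an inhibitory member of the kinase family that restrains this step.

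The region around the transcription start is shown for 3 of the genes that were higher after anti-CD40, since it is where shared regulators of genes that move together would be looked for. RefSeq promoter windows on GRCm38.p6 (250 bases before and 50 bases from the start, 300 in all) were matched for 6 of the 9 genes, those of Cd180, Ly86, Myd88, Irak2, Irak3, and Tirap, and the window nearest to the start given in the deposited table is printed. Both strands were searched for an NF-kB consensus of 10 bases, for TTCNNNGAA (STAT), for TGANTCA (AP-1), and for TTNNGNAA (C/EBP). Matches are in capitals and the rest is in lower case.
Myd88, chr9:119339969-119340268, minus strand: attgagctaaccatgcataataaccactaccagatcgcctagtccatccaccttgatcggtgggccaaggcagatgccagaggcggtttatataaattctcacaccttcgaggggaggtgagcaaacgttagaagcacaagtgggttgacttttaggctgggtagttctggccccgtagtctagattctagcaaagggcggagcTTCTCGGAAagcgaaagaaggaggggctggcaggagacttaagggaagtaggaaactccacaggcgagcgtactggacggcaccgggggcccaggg
Irak3, chr10:120201548-120201847, minus strand: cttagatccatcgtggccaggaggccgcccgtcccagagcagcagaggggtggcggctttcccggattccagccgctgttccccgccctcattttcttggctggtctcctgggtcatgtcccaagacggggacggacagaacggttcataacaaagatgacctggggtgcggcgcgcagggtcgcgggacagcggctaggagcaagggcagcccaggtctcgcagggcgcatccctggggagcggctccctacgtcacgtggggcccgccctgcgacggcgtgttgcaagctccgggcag
Cd180, chr13:102693308-102693607, plus strand: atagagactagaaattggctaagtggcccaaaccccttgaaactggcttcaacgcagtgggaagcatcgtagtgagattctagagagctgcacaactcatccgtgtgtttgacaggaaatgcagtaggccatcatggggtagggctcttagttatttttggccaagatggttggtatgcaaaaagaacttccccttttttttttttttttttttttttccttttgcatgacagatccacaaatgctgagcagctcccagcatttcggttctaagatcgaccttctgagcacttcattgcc
The Myd88 window held 1 STAT match, which begins 46 bases before the start. The windows of Irak3 and Cd180 held no match to any of these letters, nor did those of Ly86 and Irak2. A further Irak3 window, 593 bases from the start given in the table, held 3 C/EBP matches, of which 2 overlap, and the Tirap window held 2 C/EBP matches. Among 32851 promoters of the same length, 8.459% held the NF-kB consensus, 8.298% the STAT letters, 7.808% the AP-1 letters, and 40.68% the C/EBP letters. A match describes these windows only and shows no binding.

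Levels are given as FPKM, in which fragments are divided by transcript length and by the reads mapped in the library. Libraries that read the 3′ end give about the same number of reads for a short and a long transcript, so the FPKM of different genes were not compared with each other. Fold changes are on the scale of log2(FPKM + 0.1), which understates the change of low genes. Genes were called at an adjusted p under 0.05 from limma, with Benjamini-Hochberg adjustment over the 13807 genes. An exact permutation test over the 84 ways to split 9 mice into 3 and 6 was run beside it, whose smallest possible 2-sided p is 0.0238. The limma p-values set the difference between the groups against the spread between these mice, moderated over all genes tested. The permutation p-values place that difference among the 84 splits. In bulk liver, fewer cells of a type and less RNA per cell cannot be told apart.

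Of the 9 genes, Cd14, Lbp, Cd180, Myd88, and Irak3 were higher after anti-CD40, none was called lower by limma (nor at an unadjusted p under 0.05), and Ly96, Ly86, Irak2, and Tirap did not pass the threshold. In each of the 5 genes called higher, every anti-CD40 mouse lay above every control mouse. Among all genes tested, 23.5% were called higher, 21.7% were called lower, and 22.7% had every anti-CD40 mouse above every control mouse. The median log2 fold change was 0.84 for the 9 genes and 0.0056 for all genes tested. The background depends on the scaling. Saa1, Saa2, and Saa3, acute phase genes, made up 25.4% to 25.9% of the summed FPKM after anti-CD40 and at most 0.380% in control mice. Scaling by the median of ratios to the mean of all mice left the median of all genes tested at 0.0085, with 3254 called higher and 2968 lower. With the 3 Saa genes removed and the libraries rescaled to 1 total, that median moved to 0.35. The calls among all genes tested then moved from 3240 higher and 2990 lower to 5633 higher and 1647 lower. Under the rescaling without the Saa genes, Ly86 and Irak2 also passed the threshold as higher. Calls gained or lost under it, here and below, include this upward shift of the typical gene.

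**Figure D1:**
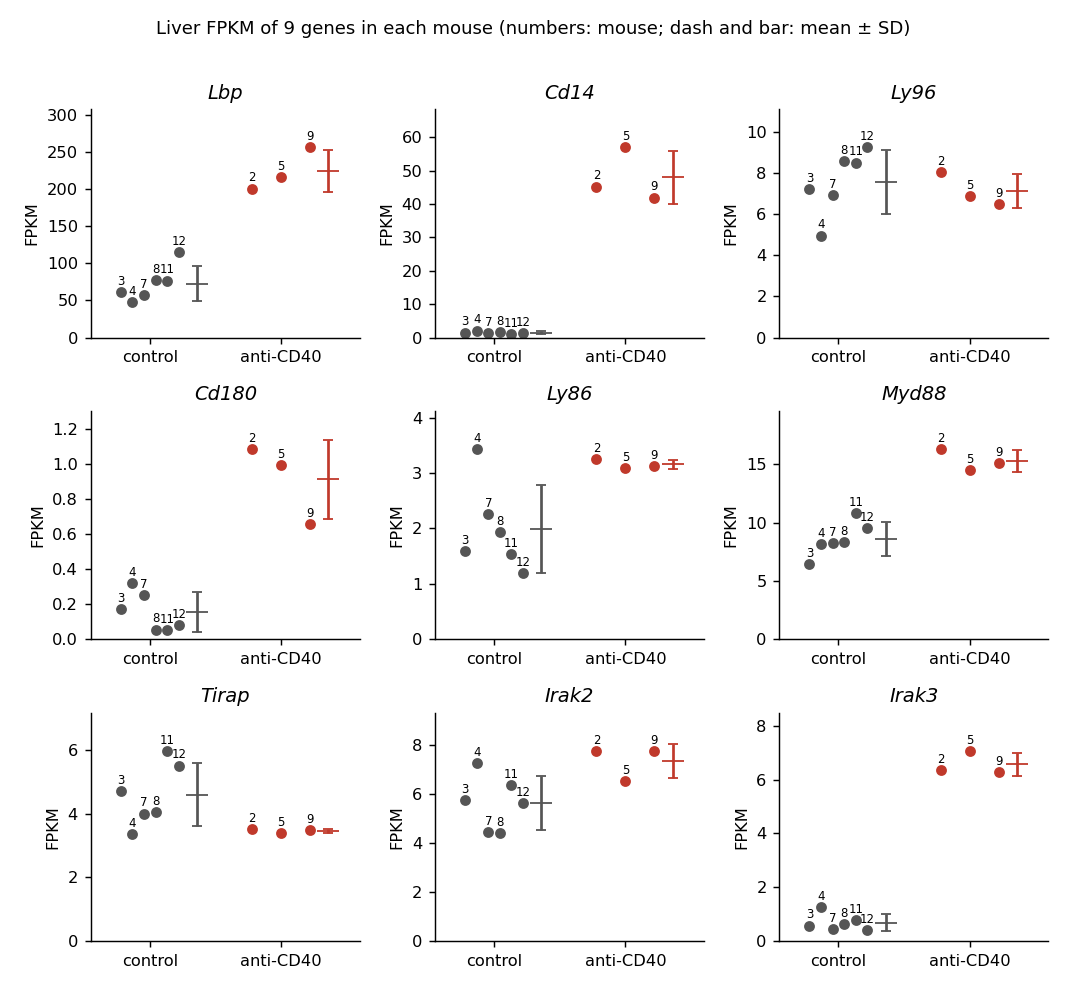
FPKM of the 9 genes in the liver of each mouse, with 1 point per mouse (6 control in grey, 3 anti-CD40 in red, mouse number above each point) and the mean ± SD of each group beside the points. The groups are apart for Lbp, Cd14, Cd180, Myd88, and Irak3 and overlap for Ly96, Ly86, Tirap, and Irak2.

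The 2 genes that capture LPS outside the receptor complex were both higher. Lbp (chr2:158306493-158332852, plus strand, mm10) measured 201, 216, and 256 FPKM in anti-CD40 mice 2, 5, and 9. The control mice ran from 48.2 to 115 FPKM with a median of 68.9. Every treated mouse was at least 1.74 times the highest control mouse, mouse 12, which stood above the other control mice. The control mean of 72.5 ± 23.7 FPKM (SD, n = 6) compared with 224 ± 28.6 (SD, n = 3) in treated mice, a ratio of 3.09. This was a difference of 1.68 on the log2 scale (95% interval 1.15 to 2.21, standard error 0.24, adjusted p = 0.000256 by limma). Of 6 hepatocyte markers, 5 were called lower (Alb, Apoa1, Ttr, Cps1, and Serpina1c). Hnf4a was not called (log2 fold change -0.44, adjusted p = 0.139 by limma). Their summed FPKM was 4211 to 5059 after anti-CD40 against 12006 to 23424 in control mice. These marker values were not rescaled for the Saa genes, and their bearing on Lbp was not tested.

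Cd14 (chr18:36725064-36726815, minus strand, mm10) was measured at 45.2, 57.0, and 41.9 FPKM in mice 2, 5, and 9. In the control mice it ran from 1.02 to 2.1 FPKM with a median of 1.40. The lowest treated mouse was 20.0 times the highest control mouse, the widest gap among the 9 genes. The log2 fold change was 4.94 (95% interval 4.49 to 5.39, standard error 0.20, adjusted p = 1.45e-07 by limma), which placed Cd14 at rank 46 from the top among the genes tested. The ranks of Irak3, Cd180, and Lbp were 227, 707, and 1043.

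Ly96 (chr1:16688456-16709605, plus strand, mm10), the Tlr4 partner that binds LPS, did not pass the threshold. Its FPKM was 8.02, 6.87, and 6.47 in the treated mice and 4.96 to 9.24 among the control mice, with a median of 7.85. The treated mice lay inside the control range. The log2 fold change was -0.06 (95% interval -0.48 to 0.36, standard error 0.19, adjusted p = 0.807 by limma), and it was 0.30 (adjusted p = 0.162) after rescaling without the Saa genes. Tlr4 itself, which was not one of the 9 genes, had 1.71, 1.41, and 1.26 FPKM after anti-CD40 and 0.563 to 1.47 in control mice, and its log2 fold change was 0.50 (95% interval -0.06 to 1.06, adjusted p = 0.133 by limma). With that rescaling Tlr4 passed the threshold at 0.84 (adjusted p = 0.0233 by limma).

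Of the 2 partners of the Cd180 complex, Cd180 was called higher and Ly86 was not. Cd180 (chr13:102693558-102706631, plus strand, mm10), whose start region is printed above, was at 1.08, 0.995, and 0.655 FPKM after anti-CD40. The control mice ran from 0.0499 to 0.320 FPKM with a median of 0.126, so that the lowest treated mouse was 2.05 times the highest control mouse. The log2 fold change was 2.08 (95% interval 1.27 to 2.89, standard error 0.37, adjusted p = 0.00101 by limma). Because the control levels are near the pseudocount, it was 0.73 with a pseudocount of 1 and 2.77 with 0.01, called in both. Among the 6 genes whose reads could be recovered, as the smallest whole numbers that fit, Cd180 had the fewest in control mice. The steps between its FPKM values were those of 51, 44, and 27 reads in the anti-CD40 mice and of 2 to 14 reads in a control mouse, 39 reads over the 6 control mice.

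Ly86 (chr13:37345345-37419036, plus strand, mm10) was measured at 3.25, 3.09, and 3.13 FPKM in the anti-CD40 mice, with an SD of 0.0839. The control mice were more spread, from 1.19 to 3.43 FPKM with a median of 1.76. Control mouse 4 was above all 3 treated mice and the other 5 control mice were below them. The log2 fold change was 0.72 (95% interval 0.12 to 1.32, adjusted p = 0.0516 from limma, exact permutation p = 0.0952). Without control mouse 4 it was 0.88 and passed the threshold (adjusted p = 0.00381 by limma).

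Both cytoplasmic adaptors were measured. Myd88 (chr9:119335988-119340040, minus strand, mm10) was at 16.3, 14.5, and 15.1 FPKM after anti-CD40 and at 6.47 to 10.8 FPKM in the control mice, with a median of 8.30. The groups did not overlap, and the lowest treated mouse was 1.34 times the highest control mouse. The control mean of 8.60 ± 1.47 FPKM (SD, n = 6) compared with 15.3 ± 0.926 (SD, n = 3) in treated mice. This was a difference of 0.84 on the log2 scale (95% interval 0.50 to 1.18, standard error 0.15, adjusted p = 0.00118 by limma). The Myd88 locus overlaps Slc22a14 on the same strand and Acaa1a on the other, but no exon of another gene covers the last 500 bases of Myd88, where 3′ reads would fall.

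Tirap (chr9:35184391-35200291, minus strand, mm10), which links Myd88 to Tlr4, had 3.51, 3.39, and 3.49 FPKM in the anti-CD40 mice. In the control mice it ran from 3.36 to 5.98 FPKM with a median of 4.38, and 5 of the 6 lay above every treated mouse. Control mouse 4 was the exception. The log2 fold change was -0.38 (95% interval -0.77 to 0.02, adjusted p = 0.113 from limma, exact permutation p = 0.0952). Without control mouse 4 it was -0.46 and passed the threshold as lower (adjusted p = 0.0334 by limma), whereas after rescaling without the Saa genes it was -0.02 (adjusted p = 0.937).

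Of the 2 kinases of the family, the inhibitory one showed the larger fold change. Irak3 (chr10:120141654-120201537, minus strand, mm10), also printed above, rose to 6.35, 7.08, and 6.29 FPKM from a control range of 0.401 to 1.26 with a median of 0.602. The lowest treated mouse was 4.99 times the highest control mouse, mouse 4. The control mean of 0.678 ± 0.315 FPKM (SD, n = 6) compared with 6.57 ± 0.437 (SD, n = 3) in treated mice, a ratio of 9.69. This was a difference of 3.18 on the log2 scale (95% interval 2.55 to 3.81, standard error 0.28, adjusted p = 1.24e-05 by limma). In reads, the steps were those of 338 to 408 per anti-CD40 mouse and 20 to 72 per control mouse. Gm47009 lies on the opposite strand within the Irak3 locus, away from the last 500 bases of Irak3.

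Irak2 (chr6:113638467-113695027, plus strand, mm10), which carries the signal on to Traf6, had 7.74, 6.53, and 7.75 FPKM after anti-CD40 and 4.40 to 7.26 in control mice, with a median of 5.67. Mice 2 and 9 were above all control mice, and mouse 5 was below control mouse 4. The log2 fold change was 0.39 (95% interval 0.01 to 0.77, adjusted p = 0.0856 by limma), while the exact permutation test of this gene alone gave p = 0.0476. Leaving out control mouse 4 gave 0.47, past the threshold (adjusted p = 0.0277 by limma).

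**Figure D2:**
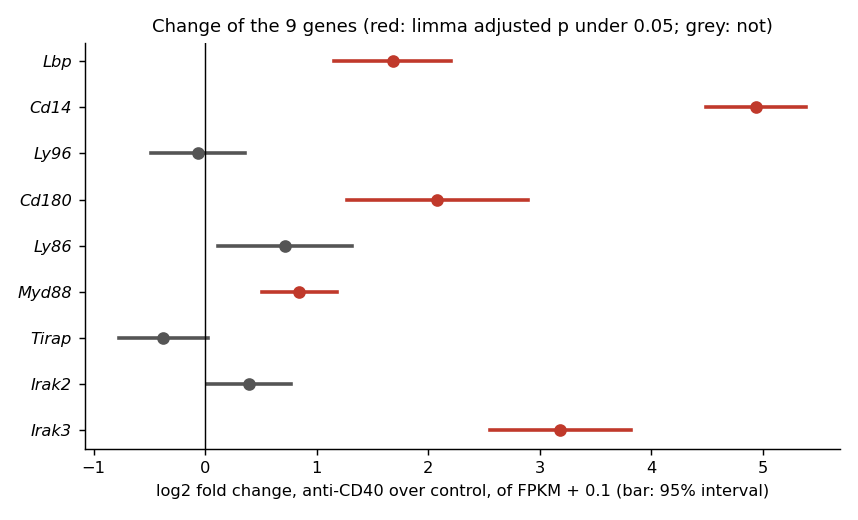
Log2 fold change of FPKM + 0.1 (anti-CD40 over control) for each of the 9 genes, with its 95% interval from limma as a bar, in red where the adjusted p was under 0.05. Cd14 at 4.94 and Irak3 at 3.18 lie farthest to the right, and the intervals of Ly96 and Tirap include 0.

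Reads per gene were recovered from the steps between FPKM values for Cd180, Ly86, Myd88, Irak2, Irak3, and Tirap, and not for Cd14, Lbp, and Ly96. They are the smallest whole numbers that give the deposited values, to within 0.05 reads, so the true reads could be multiples of them. Ly86 rested on 48 to 57 reads per anti-CD40 mouse and 17 to 56 per control mouse. Myd88 had 499 to 615 and 210 to 348, Irak2 388 to 489 and 214 to 427, and Tirap 303 to 348 and 310 to 506. If these are the true reads, counting error is larger for Cd180 and Ly86, and for Irak3 in control mice (20 to 72 reads), than for Myd88, Irak2, and Tirap. The read totals of the libraries are unknown, and the relative depth (geometric mean of all mice set to unity) was 0.991 to 1.13 after anti-CD40 and 0.870 to 1.06 in control mice.

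Genes that act together were compared within each mouse, where a scaling factor cancels apart from the pseudocount. Of 7 pairs, 5 differed between the groups, with no overlap. All 5 were at the smallest p the exact permutation test can give (p = 0.0238, 0.0333 adjusted over the 7 pairs). How many other gene pairs differ in this way was not examined. Each of these 5 pairs holds a gene that was also called higher by itself, so they partly repeat those calls. The first was Cd14 against Tlr4, the receptor complex it feeds. The log2 difference was 4.65, 5.24, and 4.95 in the treated mice and -0.14 to 1.11 among the control mice, a shift of 4.44 (standard error 0.32). Ly96, the other partner of Tlr4, differed from it by 2.17, 2.21, and 2.28 after anti-CD40 and by 1.88 to 3.82 in control mice. That shift of -0.56 (standard error 0.41) did not pass the test (exact permutation p = 0.238).

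Cd14 also rose beyond Lbp, which delivers LPS to it. The log2 difference was -2.15, -1.92, and -2.61 in the treated mice and -6.33 to -4.46 among the control mice, a shift of 3.26 (standard error 0.42). For the Cd180 complex, Ly86 minus Cd180 was 1.50, 1.54, and 2.09 after anti-CD40 and 2.63 to 3.71 in control mice, a shift of -1.36 (standard error 0.28). This pair depends on the pseudocount, since Cd180 was low in control mice. With a pseudocount of 1 the shift was -0.21 (exact permutation p = 0.238, adjusted over the 7 pairs).

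Among the kinases, Irak2 minus Irak3 fell from 2.43 to 3.51 in the control mice to 0.28, -0.11, and 0.30 in anti-CD40 mice 2, 5, and 9, a shift of -2.79 (standard error 0.25). Myd88 minus Tirap was 2.19, 2.07, and 2.09 after anti-CD40 and 0.45 to 1.26 in control mice, a shift of 1.22 (standard error 0.17). The treated mice were close together in this pair, with an SD of 0.0646 against 0.274 among the control mice. The last pair, the homologs Ly96 and Ly86, shifted by -0.78 (standard error 0.48, exact permutation p = 0.167), and the groups overlapped.

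**Figure D3:**
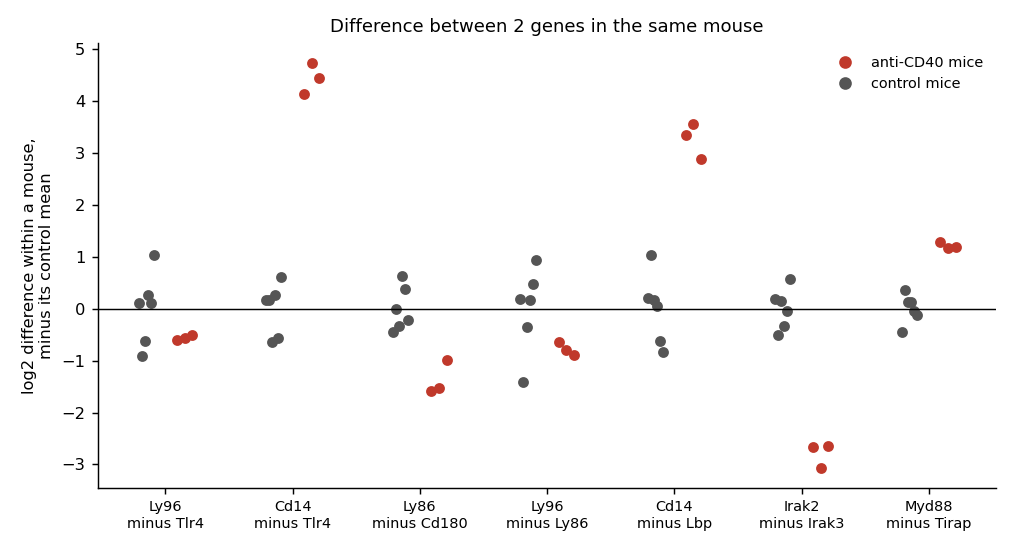
Difference in log2(FPKM + 0.1) between 2 genes of the same mouse, minus the mean of that difference in the 6 control mice, for 7 pairs (grey points control, red points anti-CD40, 1 point per mouse). The red points lie outside the grey ones in 5 pairs and overlap them for Ly96 minus Tlr4 and Ly96 minus Ly86.

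Control mouse 4 was the highest or lowest of its group in 8 of the 9 genes. Over all genes tested it was at an end in 52.9%, and the other control mice in 22.2% to 43.6%. Mouse 4 was highest for Cd14, Ly86, Cd180, Irak2, and Irak3, and lowest for Lbp, Ly96, and Tirap. No other control mouse was at an end of the group in more than 4 of the 9 genes, and mouse 7 was at an end in none. In mouse 4 the summed B cell markers (7.38 FPKM) and erythroid markers (15095 FPKM) were also the highest among control mice, whose other values reached 3.78 and 3747. The erythroid sum was mostly Hbb-bt (14930 FPKM in mouse 4), and Hba-a1 was at the floor of the table in every mouse. The part of the B cell and erythroid markers in the values of the 9 genes was not tested. The 3 anti-CD40 mice were each at an end of their group in 6 genes. Without control mouse 4, 7 of the 9 genes were called higher (Ly86 and Irak2 were added) and Tirap was called lower. Over all genes tested, the calls also rose, from 3240 higher and 2990 lower to 3560 higher and 3270 lower.

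**Figure D4:**
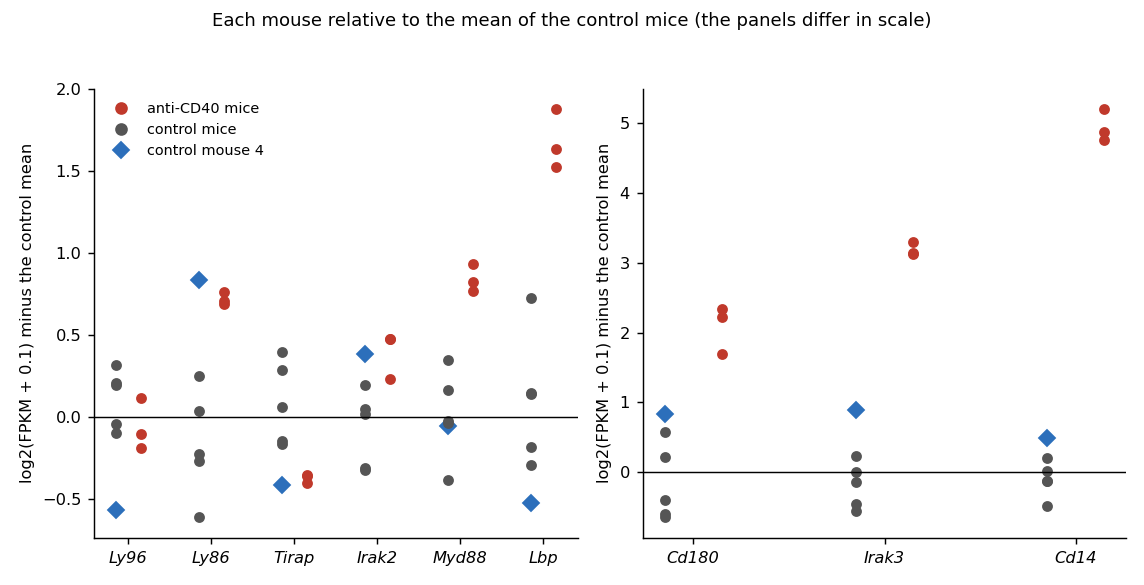
Log2(FPKM + 0.1) of each mouse minus the mean of the 6 control mice, for 6 genes on the left and the 3 with larger changes on the right, on different scales (red points anti-CD40, grey points control, blue diamonds control mouse 4). The diamond is at an end of the control points for all genes but Myd88.

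The other genes of the pathway were taken from 4 lists of 61 genes, of which 53 passed the filter. Among these 53, 23 were higher, 7 were lower, and 23 did not pass the threshold, beside 23.5% higher and 21.7% lower among all genes tested. Rescaling without the Saa genes gave 36 higher and 3 lower, beside 5633 higher and 1647 lower of the 13852 genes tested under that scaling. A limit of 2-fold left 19 higher and 1 lower, beside 3142 genes called among all genes tested, which were not split by direction. The receptors that signal through Myd88 held 12 tested genes, 8 of them higher and 1 lower, with a median log2 fold change of 1.66. Tlr2, the receptor for bacterial lipoproteins, was at 4.29, 3.76, and 2.72 FPKM after anti-CD40 and at 0.272 to 0.749 in control mice (2.79 on the log2 scale, adjusted p = 2.17e-05 by limma). Tlr13 (2.52), a sensor of bacterial ribosomal RNA, Tlr1 (2.32), the partner of Tlr2, and Il18r1 (1.87), a chain of the IL-18 receptor, were also higher on the log2 scale. With a pseudocount of 1 these 4 kept their calls at smaller values (1.66, 1.15, 1.14, and 0.95), and Il18r1 lost its call when no filter on low values was used (adjusted p = 0.0590 by limma). Il1rap, the shared chain of the IL-1 and IL-33 receptors, was the 1 receptor called lower (-1.13 on the log2 scale, adjusted p = 0.00820 by limma), and it lost its call after rescaling without the Saa genes (-0.77, adjusted p = 0.0628).

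Of 21 signaling genes below the adaptors that were tested, 6 were higher (28.6%), 5 were lower, and 10 did not pass the threshold, which is near the 23.5% higher and 21.7% lower among all genes. Their median log2 fold change was 0.10. Irf7 (2.12), a transcription factor of the interferon response, Ticam2 (1.91), the adaptor that joins Tlr4 to the TRIF branch, Traf3 (1.59), and the kinase Map3k8 (1.14) were higher on the log2 scale. With a pseudocount of 1 Ticam2 was at 0.89. The lower genes were Chuk, Peli2, Map3k7, Map2k3, and Tab1, named because they were few, and Chuk and Tab1 lost their calls after rescaling without the Saa genes (adjusted p = 0.0762 and 0.136 by limma). The kinases and ligase that Myd88 engages first had no call. Irak1 was at 21.7, 21.3, and 22.7 FPKM after anti-CD40 and at 21.8 to 25.6 in control mice (log2 fold change -0.12, adjusted p = 0.314 by limma), and it was 0.24 after rescaling without the Saa genes (adjusted p = 0.0479). Irak4 differed by 0.34 on the log2 scale (adjusted p = 0.196 by limma), which became 0.46 and passed the threshold without control mouse 12 (adjusted p = 0.0447 by limma) and 0.70 after the rescaling (adjusted p = 0.00839). Traf6 had -0.06 (adjusted p = 0.818), a sign that turned with the rescaling (0.28), and Ticam1, the TRIF adaptor itself, had 0.33 (adjusted p = 0.431).

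Inhibitors of the pathway counted 11 tested genes, with a median log2 fold change of 0.60. Of these, 6 were higher (54.5%), 1 was lower, and 4 had no call, beside 23.5% higher and 21.7% lower among all genes. Tnfaip3 (A20), a ubiquitin-editing enzyme that dampens NF-kB signaling, was at 2.93, 2.68, and 2.48 FPKM after anti-CD40 and at 0.0992 to 0.363 in control mice (3.10 on the log2 scale, adjusted p = 2.18e-05 by limma). Its binding partner Tnip1 (3.00), the cytokine signaling inhibitor Socs1 (2.69), and Tnip3 (1.74) were also higher on the log2 scale. Tnip3 was at the floor of 0.01 FPKM in 3 control mice, so its value is set by the pseudocount, from 0.37 with 1 to 3.37 with 0.01. That of Tnfaip3 was 1.58 with a pseudocount of 1. Sigirr, a receptor that restrains IL-1 and Toll-like receptor signaling, was the 1 inhibitor called lower, from 4.75 ± 0.341 FPKM (SD, n = 6) in control mice to 3.38 ± 0.283 (SD, n = 3), and it lost its call after rescaling without the Saa genes (adjusted p = 0.388 by limma).

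Of the genes that handle LPS or fold Toll-like receptors, 3 of 9 tested were higher (33.3%), near the 23.5% among all genes. None was called lower by limma, nor at an unadjusted p under 0.05, beside 21.7% called lower among all genes. Itgam (log2 fold change 3.35) and Itgb2 (2.99) encode the chains of complement receptor 3, an integrin of myeloid cells, and Itgam was at 2.17 with a pseudocount of 1. Unc93b1 (0.39), which carries Toll-like receptors to endosomes, was higher too, but it lost its call without anti-CD40 mouse 2 (0.37, adjusted p = 0.0870 by limma) or mouse 9 (0.32, adjusted p = 0.117).

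**Figure D5:**
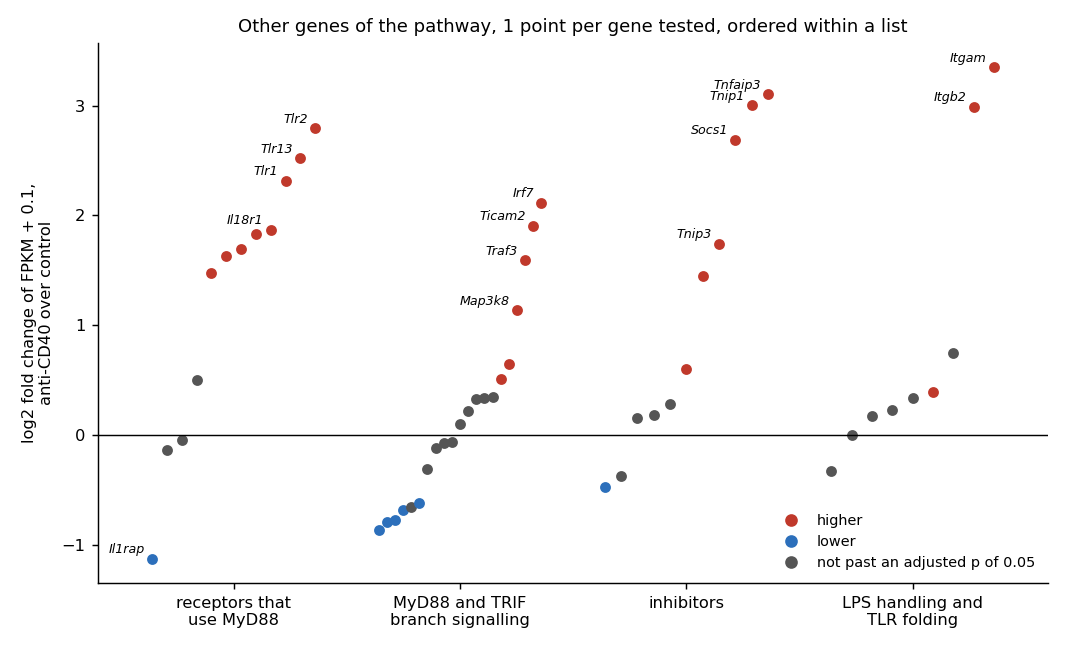
Log2 fold change of FPKM + 0.1 (anti-CD40 over control) for the 53 other pathway genes tested, 1 point per gene, ordered within each of the 4 lists (red called higher, blue called lower, grey neither). The receptor list holds 8 red points and 1 blue point, and the signaling list 6 red and 5 blue.

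Levels of cell type markers also differed between the groups, given as sums of FPKM over each list. Such a sum follows the genes of highest FPKM in its list. Monocyte markers were at 578 to 779 after anti-CD40 and 46.1 to 126 in control mice, with 6 of 6 called higher. Plac8 alone made up most of that sum, at 470 to 641 and 44.1 to 122. Neutrophil markers were at 72.0 to 84.6 and 0.700 to 6.69, with all 6 in the table higher. B cell markers were at 31.3 to 46.5 and 1.67 to 7.38, with all 6 tested higher, whereas Pax5 was at the floor of the table in 8 of the 9 mice and was not tested. Dendritic cell markers were at 9.37 to 11.7 and 2.53 to 3.98, with 5 of 6 higher. Kupffer cell markers were at 39.0 to 50.7 and 285 to 456, with 6 of 6 lower. The wider macrophage list gave 46.3 to 52.0 and 36.6 to 77.2, with 1 higher (Cd68) and 1 lower (Adgre1), and sinusoidal endothelial markers gave 55.9 to 64.0 and 55.8 to 84.1, with 2 higher and 1 lower. Cd14, Lbp, Cd180, Myd88, Irak3, and Itgam were called higher in the same mice as the monocyte, neutrophil, B cell, and most dendritic cell markers. So were 23.5% of all genes tested, while the Kupffer cell markers were lower. The part of these cells in the changes was not tested.

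Anti-CD40 mouse 5 held exocrine pancreas transcripts, at a sum of 400 FPKM over 6 markers, against 0.06 to 2.66 in the other 8 mice. Without mouse 5 and control mouse 4, the log2 fold changes of the 5 called genes were 4.91 for Cd14, 1.60 for Lbp, 2.18 for Cd180, 0.87 for Myd88, and 3.31 for Irak3, all called by limma.

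The genes whose levels ran most like 3 of the 9 were found by Pearson's r of log2(FPKM + 0.1) over the 9 mice, given as a description. The 9 points share the difference between the groups, and 818 genes reached 0.95 with Cd14, 161 with Lbp, and 557 with Irak3. For Cd14 they were Asprv1 (r = 0.997), C2 (0.996), and Serpina3i (0.995). For Lbp they were Serpina3n (0.996), Ikbke (0.991), and Slc43a2 (0.988), and for Irak3 Bmper (0.991), Slc7a1 (0.991), and Slamf8 (0.990). Serpina3n, an acute phase protease inhibitor, ran from 24.3 FPKM in control mouse 4 to 74.7 FPKM in control mouse 12. With Ly96, Irak2, Tirap, and Ly86, the genes not called, 4, 5, 6, and 16 genes reached 0.95.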

How the data were processed

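Liver RNA of 9 mice was sequenced with QuantSeq 3′ libraries. Alignment to mm10 (STAR, in BaseSpace) and quantification (Cufflinks, CuffDiff) were done by the authors, who deposited FPKM values with a floor of 0.01. The annotation and any filter behind the table are not given in the sources used here. The 15 genes with a failed estimate were left out, and FPKM were not rescaled. The log2(FPKM + 0.1) of the 13807 genes whose mean FPKM reached 0.1 was tested with limma 3.58.1 in R 4.3.3 (trended eBayes, 2-sided, with treatment as the only term), with Benjamini-Hochberg adjustment at 0.05. Single values used an exact permutation test over mice. No test on counts was run, since whole reads were recovered for 57.6% of 4559 low genes only. Positions are those of the table, counted from 1, and overlaps came from GENCODE annotation. Promoters came from RefSeq. Scripts were tested on simulated data.
The 9 genes and the lists were chosen with earlier results of these data known. Named pathway genes were up to 4 called genes of each list with the largest change, plus Tlr4, Irak1, Irak4, Traf6, and Ticam1. Sigirr, Il1rap, and the lower signaling genes were chosen after their values were seen. Alternatives were pseudocounts of 1 and 0.01, other filters and scalings, other limma settings, stricter calls, and leaving out each mouse. Leaving out mouse 5 and control mouse 4 together was added after seeing the data.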

Additional observations from a re-analysis of the deposited data

Results flagged for a closer look

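The control group was searched for mice far from the others, by whether the gap between an end mouse and its neighbor, as a share of the range of the 6 mice, was above Dixon's 95% critical value. Of 46 results examined 4 passed. For independent and normally distributed values about 1 in 20, or 2.3, would pass. These results share the same 6 mice and are FPKM values, some at the floor, so the 2 numbers cannot be compared. None of the 9 genes was among the 4 results that passed. Erythroid markers took 0.871 of the range, with control mouse 4 at 15095 FPKM (14930 of it Hbb-bt) and the others at 2069 to 3747. B cell markers took 0.630, with mouse 4 at 7.38 FPKM and the others at 1.67 to 3.78. Tnip3 took 0.690, with mouse 4 at 0.109 FPKM and the others between the floor of 0.01 and 0.0406. Map3k8 took 0.681, with mouse 12 lowest at 0.915 FPKM and the others at 1.19 to 1.33.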

How the results depend on the processing

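Cd14, Lbp, Myd88, and Irak3 stayed higher and past the threshold under all 20 alternative fits, and Cd180 under the 19 that tested it; a mean FPKM of at least 1 left it untested. With stricter calls or other settings, 4 to 7 of the 9 genes were higher. The number of all tested genes called in either direction then ran from 3142 to 7377, against 6230. The number lower was 1 instead of 0, through Tirap, with quantile normalization (log2 fold change -0.53), with array weights (-0.42), and without control mouse 4, so that leaving out single mice gave 0 to 1, and Tirap then ran from -0.46 to -0.30. Ly86 passed after rescaling without the Saa genes (1.07), with robust eBayes (0.72, adjusted p = 0.0499 from limma), with array weights (0.78), and without both mouse 5 and control mouse 4 (0.90), and it ran from 0.59 to 0.88 when single mice were left out. Irak2 passed with the rescaling (0.75), array weights (0.41), and both mice left out (0.55), and ran from 0.33 to 0.47. Ly96 changed sign with the rescaling (0.30) and without anti-CD40 mouse 9 (0.0020), ranging from -0.18 to 0.0020 over single mice left out. Irak1 turned with quantile normalization (0.037) and the rescaling (0.24), and Traf6 with the rescaling (0.28), without anti-CD40 mouse 2 (0.10), and without control mouse 11 (0.02), within -0.17 to 0.10 over single mice. The cause of these changes was not tested.
Rescaling called 36 other pathway genes higher and 3 lower, beside 5633 higher and 1647 lower of all 13852 genes tested under it. Requiring a 2-fold change left 19 other pathway genes higher and 1 lower, and 3142 genes called in either direction of 6230. Ly86 minus Cd180 was -0.21 with a pseudocount of 1. Of all called genes, 52.0% were higher, against 46.4% with quantile normalization, 44.7% at a mean FPKM of at least 1, and 77.4% with the rescaling. No paired analysis was possible because the groups share no mouse numbers. Among the 6 genes with recovered reads, which are minimum numbers, Cd180 had the fewest, at 2 to 14 per control mouse.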
